A study of Homo sapiens with 10 samples.

Results

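Spheroids (3D) of PC-3, an established human cell line from a bone metastasis of prostate cancer that lacks the androgen receptor program of luminal prostate cells, were sequenced on day 7 of 2 topotecan regimens and compared with untreated spheroids. The comparison uses 5 of the 10 samples of the experiment, namely 1 library of CONV-TOPO on day 7, 1 library of EE-TOPO on day 7 and the untreated libraries of days 0, 3 and 7. In CONV-TOPO (the conventional regimen) topotecan was added as a bolus on day 0, and in EE-TOPO (extended exposure, METRO in the labels) the same weekly total was given in daily fractions. All 5 libraries come from the same unmodified cell line (genotype WT in the labels), and the untreated spheroids received media without drug. Each condition and day is 1 library from 1 cell line, so the 3 untreated libraries are 3 days of culture and not replicate cultures, and the treated libraries are 1 of each regimen. The labels name the later time point day 7, while the study's methods describe a longer exposure.

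A gene was called changed only if both treated libraries lay above, or both lay below, all 3 untreated libraries in counts per 1000000 reads (CPM, minus the offset of 0.0001 that every deposited value carries). Genes that met neither condition are counted below as within the range. A single treated library of such a gene, or each on an opposite side, can still lie outside the untreated values. Only genes with a mean of at least 10 CPM over the 5 libraries were tested, which left 9862 of the 18144 listed genes. With 2 against 3 libraries the smallest two-sided p that an exact permutation test allows is 0.2, so the range rule carries no p-value. Beside it stands a limma test of the 2 treated against the 3 untreated libraries on log2(CPM + 1), adjusted by Benjamini-Hochberg over all 9862 genes, whose error is the spread between untreated days and between regimens. Log2 changes below are on this log2(CPM + 1) scale, treated minus untreated, "rose" and "fell" are used of genes past an adjusted p of 0.05 in that test, and untreated values are given in the order of days 0, 3 and 7.

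Topotecan inhibits TOP1, the enzyme that nicks 1 DNA strand to release supercoils ahead of polymerases, by trapping it on the nick. Replication forks and RNA polymerases that meet a trapped TOP1 stall, and the damage is known to engage the checkpoint kinases, p53-family targets and, in some cells, interferon signalling. Long genes are known to depend on TOP1 for transcription. Length is given beside each pathway, as the length of the transcript unless the span of the gene is named. The untreated PC-3 spheroids expressed the mesenchymal gene VIM and also the epithelial genes KRT8, KRT18 and EPCAM. Genes of epithelial-mesenchymal transition (EMT), the laminin chain gene LAMB3, the large scaffold gene AHNAK2 and the YAP target CCN2 are among the genes used here to characterise PC-3 cells.

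The steps of the low values gave depths of 15.0 to 20.0 M reads (M, 1000000) per library. Taken as an upper bound on the level of a gene listed at 0, 3 reads were worth 0.150 to 0.200 CPM. Lower values above 0 also occur, such as CD14 at 0.0608 CPM after CONV-TOPO. All 9 markers of PC-3 cells were listed, and their summed level was 4664 to 4962 CPM in the treated and 4011 to 4161 CPM in the untreated libraries. Markers of other cell types were low. Fibroblast markers (7 of 8 listed) summed to 55.7 to 60.3 CPM treated and 63.5 to 101 CPM untreated, and endothelial markers (4 of 5 listed) to 38.5 to 46.5 CPM treated and 41.9 to 61.8 CPM untreated. Leukocyte markers (6 of 7 listed) summed to 138 to 149.9 CPM treated and 73.7 to 104 CPM untreated. Most of that was CD68, a lysosomal protein also made outside leukocytes, while the defining markers PTPRC, CD14 and CSF1R stayed at or below 1.06 CPM in all 5 libraries. The B-cell marker CD79A had 4.41, 3.75 and 4.36 CPM untreated, 10.9 CPM after CONV-TOPO and 18.0 CPM after EE-TOPO, above the untreated range in both, and LYZ had 3.01, 3.96 and 3.73 CPM untreated and 6.93 and 2.73 CPM treated. The part of these cells in the results was not tested. Neuroendocrine markers (4 of 12 listed) summed to 282 to 303 CPM treated and 206 to 262 CPM untreated, most of it ENO2 (167, 219 and 219 CPM untreated, 262 and 254 CPM treated) and FOXA2 (38.9, 32.9 and 40.8 CPM untreated, 40.2 and 26.9 CPM treated), with SYP and NCAM1 at or below 1.79 CPM. Rows of ribosomal RNA held 2.19% of CPM after CONV-TOPO and 2.08% after EE-TOPO, against 0.615%, 0.571% and 0.484% untreated, and the part of this difference in the results below was not tested. The libraries are from bulk spheroids, so fewer cells of a kind and less RNA per cell cannot be told apart.

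More genes lay below than above the untreated range. Both treated libraries lay above all 3 untreated ones for 2370 genes (24.0% of those tested) and below them for 4813 (48.8%), and 2679 genes (27.2%) did neither. The limma test called 1636 genes higher (16.6%) and 3752 lower (38.0%), and 5380 of these 5388 calls were also calls of the range rule in the same direction. The separation was mostly narrow. Between the nearest treated and untreated libraries the median gap was 1.22-fold for genes above and 1.32-fold for genes below, and 459 and 1512 genes had a gap of at least 1.5-fold. The balance between the directions depends on the scaling. The median gene had a log2 change of -0.23 in deposited CPM (-0.24 after CONV-TOPO and -0.22 after EE-TOPO), and scaling by TMM factors moved it by 0.22 to -0.01, with 3455 genes above (35.0%) and 3470 below (35.2%). All 2370 genes above the range in CPM stayed above it after TMM scaling, whereas 3470 of the 4813 genes below stayed below.

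Short transcripts lay above the untreated range and long transcripts below it. Across the 9724 tested genes with a known transcript length, Spearman's rho between the log2 change and transcript length was -0.63, and with the span of the gene on the chromosome it was -0.52 (a description over genes, which share the same 5 libraries and are not independent replicates). Of the 577 genes with transcripts under 1 kb, 63.4% were above the range and 7.11% below, with a median log2 change of 0.45. In the class of 3 to 5 kb (2769 genes) 11.6% were above and 59.3% below, with a median of -0.35. Of the 885 genes with transcripts of at least 8 kb, 2.94% were above and 84.2% below, with a median of -0.80. Genes were also split into 3 classes of each length. Among the shortest transcripts the median was 0.37 with the shortest spans and 0.01 with the longest. Among the longest transcripts these medians were -0.37 and -0.75. Both regimens had the trend, with a rho for transcript length of -0.64 after CONV-TOPO and -0.60 after EE-TOPO, and CONV-TOPO minus EE-TOPO had a rho of -0.02. The untreated spheroids also moved with length, in the other direction. The rho of untreated day 7 minus day 0 was 0.49, and that of day 3 minus day 0 was 0.09. GC content (rho 0.59) and the number of exons (rho -0.37) went with the change as well, so that length, GC content and exon number cannot be told apart here by a correlation alone.

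**Figure D1:**
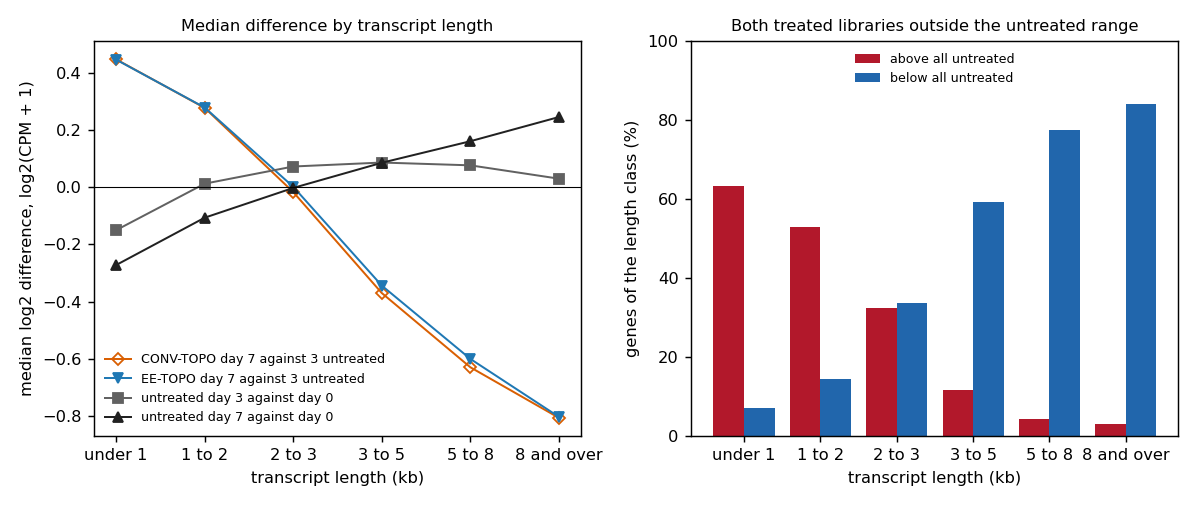
Left, median log2 difference (log2(CPM + 1)) of the genes in each class of transcript length (kb) for CONV-TOPO and EE-TOPO on day 7 against the 3 untreated libraries and for untreated days 3 and 7 against day 0; right, percent of genes in each class with both treated libraries above or below the untreated range. The treated lines run from about 0.45 in the shortest class to about -0.80 in the longest and lie nearly on each other, the untreated day 7 line runs from -0.27 to 0.25, and the share below the range grows from 7.11% to 84.2%.

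A second count therefore removes, in each library, the smooth trend of expression with transcript length. It left 3072 genes above (31.6%) and 3062 below (31.5%) of 9724, of which 1796 and 2578 had the same call in deposited CPM. For each pathway below the counts are to be read against the shares over all tested genes (24.0% above and 48.8% below). Counts after removal of the trend are given too. The value called that of genes of the same length is the change that the fitted trend gives at the transcript lengths of the members, as a median over the list.

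Of the 3 genes given for this comparison, AHNAK2 and CCN2 were below the range and LAMB3 was not called. LAMB3 (chr1:209614873-209652426, hg38), the beta 3 chain of laminin-332 in the basement membrane, had 249, 542 and 341 CPM untreated, 487 CPM after CONV-TOPO and 831 CPM after EE-TOPO. EE-TOPO lay above all untreated values but CONV-TOPO lay under the untreated day 3 library, so LAMB3 was not called (log2 change 0.83 ± 0.32 (SE), limma adjusted p = 0.0566). It was above the range with TMM scaling and with the length trend removed (1.20). AHNAK2 (chr14:104937253-104978375), a giant scaffold protein of the membrane skeleton, had 240.3, 236 and 307 CPM untreated, 111 CPM after CONV-TOPO and 88.2 CPM after EE-TOPO. Treated and untreated values did not overlap, and AHNAK2 fell to 0.381 of the untreated mean (log2 change -1.38 ± 0.15 (SE), limma adjusted p = 0.000447). Its transcript is 18335 bases long, and the fitted trend at that length was -0.97, which left -0.42. CCN2 (chr6:131948177-131951373), a matricellular protein and a standard readout of YAP and TEAD, had 123, 83.6 and 79.3 CPM untreated, 21.1 CPM after CONV-TOPO and 24.5 CPM after EE-TOPO. CCN2 fell to 0.239 of the untreated mean (log2 change -1.99 ± 0.19 (SE), limma adjusted p = 0.000334). The fitted trend at its length, 2338 bases, was 0.03, and its value with the trend removed was -2.02.

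**Figure D2:**
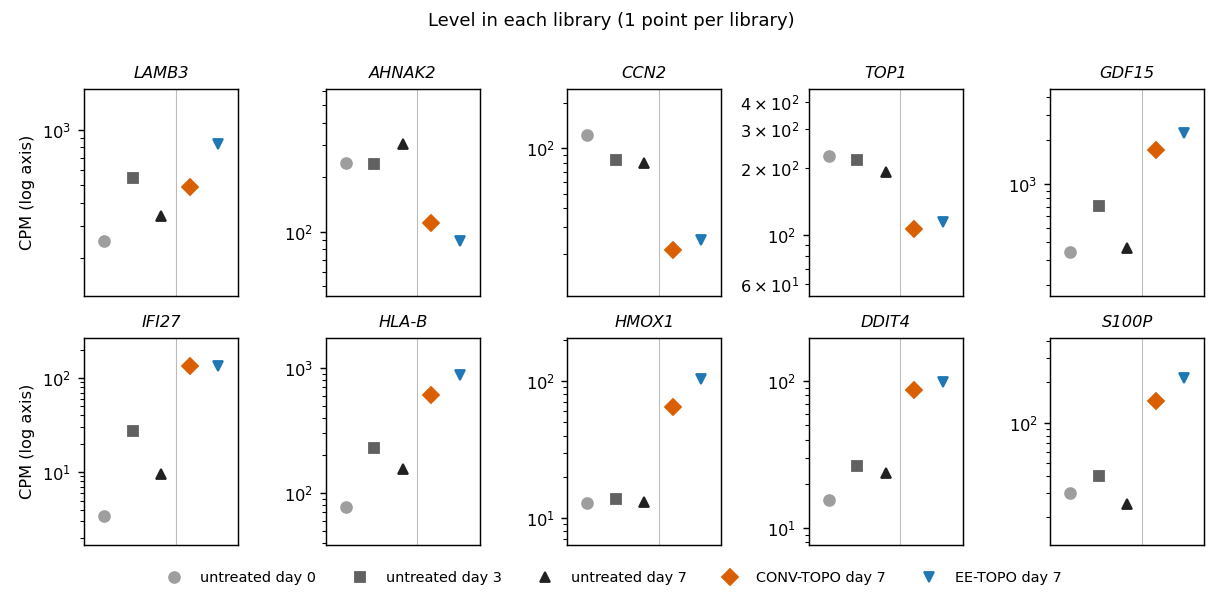
CPM on a log axis of 10 named genes in the 3 untreated libraries and both day 7 treated libraries, 1 point per library. CCN2, AHNAK2 and TOP1 lie below all untreated points in both regimens, GDF15, IFI27, HLA-B, HMOX1, DDIT4 and S100P lie above them, and the CONV-TOPO point of LAMB3 lies under untreated day 3.

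The drug's own target was lower. TOP1 (chr20:41028822-41124487) had 228, 218 and 193 CPM untreated, 106 CPM after CONV-TOPO and 114 CPM after EE-TOPO, and fell to 0.516 of the untreated mean (log2 change -0.95 ± 0.12 (SE), limma adjusted p = 0.000569). The 2 treated values lie close together and well under the lowest untreated one. Of 11 topoisomerases and enzymes that repair trapped topoisomerase, 8 were below the range, 1 above and 2 within it, and the limma test called 4 lower and 1 higher. PARP1, which marks DNA nicks with poly(ADP-ribose), fell from 293, 307 and 283 CPM to 156 CPM after CONV-TOPO and 154 CPM after EE-TOPO. TOP2B, the topoisomerase II of resting cells, fell from 137, 135 and 151 CPM to 76.3 and 65.7 CPM. TDP1, which cuts TOP1 off DNA, had 26.0 CPM after CONV-TOPO and 22.3 CPM after EE-TOPO against 26.7, 25.1 and 31.4 CPM. Only EE-TOPO lay below the untreated values, so TDP1 was not called. The median of the list was -0.35 where genes of the same length had -0.32, and with the trend removed 6 were below and 1 above. With TMM scaling 3 were below and 1 above (median -0.12), against 35.2% of all tested genes below. TOP1 overlaps another listed gene on the chromosome, so reads may be shared.

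Targets of p53 and of the DNA damage response were above and below the range at shares near those of all tested genes. PC-3 cells lack a working p53, and the targets also answer to its relatives and to stress pathways. Of 20 members, 4 were above the range (20%), 8 below (40%) and 8 within, beside 24.0% above and 48.8% below of all tested genes. The limma test called 3 higher and 6 lower. The median was -0.19 (0.04 with TMM scaling) against -0.14 in genes of the same length. GDF15, a secreted stress cytokine, had 339, 711 and 365 CPM untreated, 1716 CPM after CONV-TOPO and 2257 CPM after EE-TOPO, and rose 4.21-fold (log2 change 2.14 ± 0.30 (SE), limma adjusted p = 0.000847). PHLDA3, which restrains AKT, went from 225, 171 and 183 CPM to 486 and 603 CPM (2.82-fold, limma adjusted p = 0.000358). BAX, an effector of mitochondrial apoptosis, rose from 43.7, 38.6 and 36.9 CPM to 69.2 and 63.3 CPM. All 3 also lay above the range with the length trend removed, at 1.79, 1.59 and 0.29. Below the range were RRM2B, a ribonucleotide reductase subunit (78.5, 78.2 and 73.9 CPM untreated, 35.5 and 35.9 CPM treated), the repair factor XPC (31.2, 40.0 and 41.6 CPM untreated, 18.9 and 13.04 CPM treated) and ZMAT3. GADD45A, a growth arrest gene, was highest on untreated day 3 (108, 247 and 97.9 CPM) and had 101 and 148 CPM treated, within the range. Without the untreated day 3 library 8 members were above the range instead of 4, and with the length trend removed 5 were above and 5 below.

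Genes of DNA replication were below the range at a share near that of all tested genes. Of 31 members, 17 were below the range, 1 above and 13 within, beside 48.8% of all tested genes below, and 11 were below with TMM scaling, beside 35.2%. In CPM the limma test called 12 lower and 1 higher. The median was -0.33 where genes of the same length had -0.18, and 14 members were below and 3 above with the trend removed. PRIM1, the catalytic subunit of primase, fell from 13.2, 16.1 and 12.6 CPM to 6.50 and 7.12 CPM (log2 change -0.93 ± 0.19 (SE), limma adjusted p = 0.00434), and its value with the trend removed was -1.22. CDT1, which loads the MCM helicase at origins, was the 1 member above the range, at 42.1 and 35.2 CPM against 21.3, 33.8 and 17.8 CPM. RRM2 stayed within the range (167, 319.7 and 168 CPM untreated, 182 and 175 CPM treated).

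In the mitosis list the change went with transcript length. Of 29 members, 15 were below the range, 3 above and 11 within (15 and 2 past the limma test), beside 48.8% below and 24.0% above of all tested genes. Within the list the rho between change and transcript length was -0.83. Transcripts were 1889 to 12716 bases long in members below the range, 777 to 1649 bases in those above it and 715 to 3762 bases in those within it. KIF11, the spindle kinesin, fell from 35.4, 30.9 and 37.0 CPM to 18.4 and 17.3 CPM, and ASPM, a spindle pole protein, from 28.0, 17.5 and 43.2 CPM to 11.1 and 6.65 CPM. NUF2, of the NDC80 complex that binds microtubules, had 15.9, 19.1 and 22.5 CPM untreated and 9.06 and 8.18 CPM treated, and fell with a transcript of 1964 bases (log2 change -1.06 ± 0.19 (SE), limma adjusted p = 0.0025; -1.20 with the trend removed). AURKB, the kinase of the chromosomal passenger complex, rose from 16.2, 18.3 and 16.1 CPM to 26.1 and 30.2 CPM, and UBE2C, the ubiquitin carrier of the anaphase-promoting complex, from 50.4, 58.1 and 54.2 CPM to 80.4 and 83.8 CPM. BIRC5 (survivin) had 315, 203 and 238 CPM untreated and 263 and 231 CPM treated, within the range. The median of -0.56 compares with -0.12 in genes of the same length, and 6 members were below and 2 above with the length trend removed. Once the trends with GC content and both lengths were taken out together, the median was 0.00, with 2 below and 3 above, and without untreated day 3 the number below was 23.

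Homologous recombination, Fanconi and checkpoint genes, which restart broken forks, were mostly low. Of 23 members 18 were below the range, 1 above and 4 within (15 lower past the limma test and 0 higher). Their median was -0.79 where genes of the same length had -0.54, and 10 were below and 2 above with the trend removed. With the trends of span, transcript length and GC content removed together, chosen after seeing the data, 5 were below and 2 above (median -0.05), where 2610 of all 9724 genes were below. ATM, the kinase that answers double-strand breaks, fell from 46.4, 47.1 and 73.5 CPM to 18.8 and 16.1 CPM (log2 change -1.59 ± 0.21 (SE), limma adjusted p = 0.000718). ATR, the kinase of stalled forks, had 17.7, 19.1 and 19.3 CPM untreated and 6.32 and 7.39 CPM treated, and also fell. Both stayed below the range with the trend removed, at -0.73 and -0.61. ATM overlaps another listed gene, so reads may be shared. Among 11 histone genes 7 were above the range and 2 below, with a median of 0.49 where genes of the same length had 0.43. The linker histone H1-2 rose from 114, 101 and 107 CPM to 198 and 213 CPM. After removal of the trend 3 histone genes were above and 2 below.

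Interferon-stimulated genes were above the range of the 3 untreated libraries or within it in CPM. Interferons and the cytosolic DNA and RNA sensors switch on these genes through STAT and IRF factors that bind the interferon-stimulated response element (ISRE) in promoters. Of 27 members 11 lay above the range and 16 within it, and the limma test called the same number higher and 0 lower. The median log2 change was 0.98 where genes of the same length had 0.19, and with the length trend removed 10 were above and 0 below. Without untreated day 0 the count was 11 above and 3 below and the median 0.54, without EE-TOPO it was 12 and 1, and against untreated day 7 alone 19 and 3. IFI27 (chr14:94110736-94116691), a mitochondrial and nuclear envelope protein, had 3.41, 27.5 and 9.61 CPM untreated and 133 CPM after each regimen. It rose 9.85-fold (log2 change 3.61 ± 0.61 (SE), limma adjusted p = 0.00186). IFI6, which blocks apoptosis and viral replication, had 78.8, 516 and 200.0 CPM untreated, 1531 CPM after CONV-TOPO and 1364 CPM after EE-TOPO and rose 5.47-fold. ISG15, the ubiquitin-like modifier, went from 274, 939 and 447 CPM to 1841 and 1662 CPM, and the membrane protein IFITM1 from 41.5, 284 and 151 CPM to 792 and 624 CPM.

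The members within the range were the longer ones. Members above the range had a median transcript of 1017 bases (611 to 1923), and members within it 3554 bases (1626 to 6599), with a rho within the list of -0.81. IFIT1, which binds foreign RNA caps, had 45.1, 150.1 and 66.1 CPM untreated and 74.8 and 92.4 CPM treated. OAS3, a sensor of double-stranded RNA, had 161, 664 and 361 CPM untreated and 434 and 343 CPM treated. In both the highest library was untreated day 3. The same holds of the untreated libraries for all 27 members, and the median of untreated day 3 minus day 0 was 1.63 on the log2 scale, larger than that of treated against untreated. Of the 16 members within the range 8 lay above both untreated day 0 and untreated day 7, and without the untreated day 3 library 19 members were above the range. With 1 library a day, the spread between cultures of the same day is not known.

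**Figure D3:**
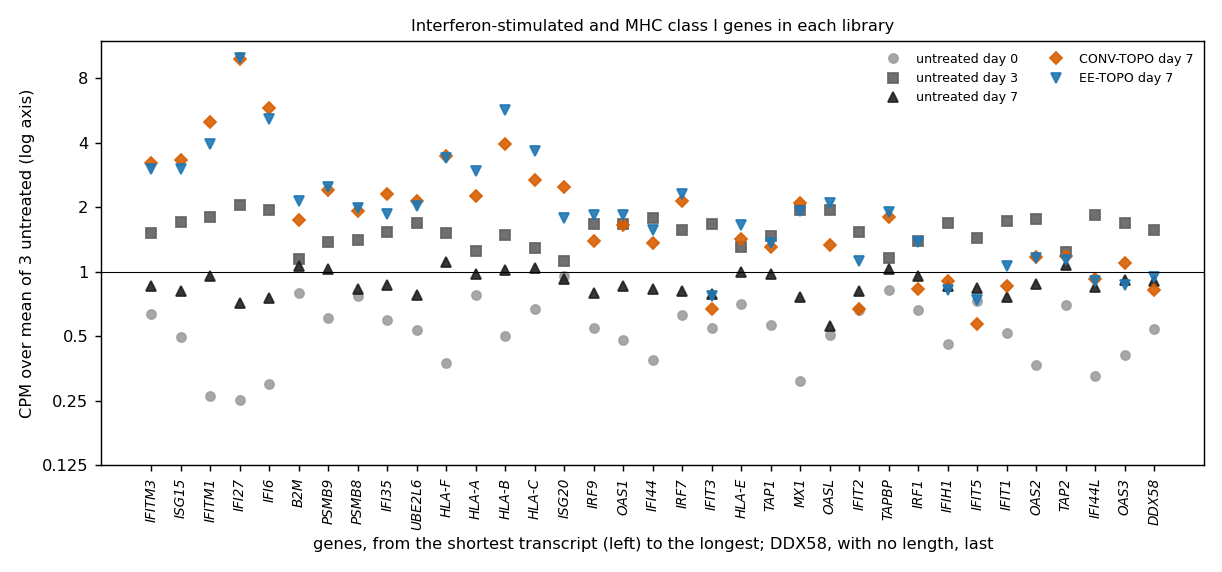
CPM of interferon-stimulated and MHC class I genes in the 5 libraries, divided by the mean of the gene's 3 untreated libraries (log axis), 1 point per library, with genes ordered from the shortest transcript on the left to the longest on the right (DDX58, with no length, last). At the left both treated points lie above all untreated ones, while at the right most of them lie among the untreated points, of which day 3 is the highest in every gene shown.

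The ISRE core was searched in the 250 bases before the RefSeq start (GRCh38.p14) as GAAANNGAAA on both strands. It was found in 13 of the 21 promoters of the list that were in the table (61.9%), against 839 of all 27305 promoters (3.07%) and 175 of 8022 promoters of tested genes (2.18%). Of the 13 members with a match, 6 were above the range and 7 within it, so a match did not separate them. The windows below are shown because they carry the element in members that left the range (IFI27, IFI6, ISG15 and, of the next list, B2M) and in 1 that did not (IFIT1). They are written 5′ to 3′ on the strand of the gene, with matches on either strand in capitals.
IFI27, chr14:94110613-94110665, plus strand: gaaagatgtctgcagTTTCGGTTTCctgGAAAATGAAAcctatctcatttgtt
IFI6, chr1:27672261-27672363, minus strand: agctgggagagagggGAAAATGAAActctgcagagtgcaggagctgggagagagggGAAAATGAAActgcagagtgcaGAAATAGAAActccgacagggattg
ISG15, chr1:1013369-1013414, plus strand: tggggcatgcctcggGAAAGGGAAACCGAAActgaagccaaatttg
B2M, chr15:44711358-44711403, plus strand: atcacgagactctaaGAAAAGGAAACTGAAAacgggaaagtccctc
IFIT1, chr10:89392492-89392544, plus strand: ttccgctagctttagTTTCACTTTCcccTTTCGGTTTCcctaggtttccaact

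MHC class I genes, which present peptides to T cells and are also induced by interferons, were higher after both regimens. Of 11 members 9 were above the range and 2 within it, the limma test called 9 higher and 0 lower, and the median was 1.00 where genes of the same length had 0.26. HLA-B (chr6:31353875-31357180) had 77.2, 228 and 156 CPM untreated, 607 CPM after CONV-TOPO and 870.0 CPM after EE-TOPO, and rose 4.81-fold (log2 change 2.37 ± 0.38 (SE), limma adjusted p = 0.00149). HLA-C rose from 230.4, 445 and 357 CPM to 919 and 1258 CPM, and HLA-F from 3.46, 13.99 and 10.2 CPM to 32.0 and 31.2 CPM. Reads of HLA genes can be shared between these near-identical copies and with pseudogenes, so the single values are uncertain. B2M, the light chain common to class I molecules, is a gene of its own and rose from 718, 1035 and 963 CPM to 1568 and 1941 CPM (limma adjusted p = 0.003). TAP1, which pumps peptides into the endoplasmic reticulum, had 87.9, 229.7 and 152 CPM untreated and 204 and 212 CPM treated, within the range because of untreated day 3. Removing the trend left 10 members above the range and 0 below, and untreated day 3 was the highest untreated library in all 11.

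Genes that the study lists as EMT markers or among the leading genes of aggressive prostate cancer lines moved in both directions. The study drew them from comparisons of cell lines that include PC-3, and whether these libraries were used there is not given in the sources used here. Of 23 tested members 8 were above the range, 10 below and 5 within (5 and 9 past the limma test), beside 24.0% above and 48.8% below of all tested genes. The median of -0.07 became 0.16 with TMM scaling. Members above the range had a median transcript of 2179.5 bases and members below it 4980.5 bases. VIM (vimentin, the intermediate filament of mesenchymal cells) rose from 731, 851 and 802 CPM to 1041 and 1074 CPM, and ANXA2, a membrane-binding annexin, from 670.2, 676 and 622 CPM to 944 and 1111 CPM. Both stayed above the range with the length trend removed, and VIM lost its limma call without either treated library (adjusted p = 0.0872 without CONV-TOPO and 0.118 without EE-TOPO). Among the lower members were MYOF, a membrane repair protein (549, 431 and 583 CPM untreated, 228 and 195 CPM treated), CD109, a co-receptor of TGF-beta (123, 112 and 139 CPM untreated, 55.4 and 62.0 CPM treated), CD55, which protects cells from complement (212, 282 and 239.9 CPM untreated, 178 and 139 CPM treated), and AHNAK2. Each of these fell, and MYOF and CD55 kept values of -0.64 and -0.58 with the trend removed. HAS3, a hyaluronan synthase, fell from 689.9, 746 and 923 CPM to 572 and 520.1 CPM, and its value with the trend removed was -0.12. HAS3 also lost the limma call without CONV-TOPO (adjusted p = 0.0608) or without EE-TOPO (0.128). Genes of the same length as the list had a median of -0.32, and 6 members were above and 8 below with the trend removed.

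The laminin-332 list, with the hemidesmosome that ties it to keratin filaments, was split, and its counts changed sides with the length trend. Of 12 members 5 were below the range, 2 above and 5 within, beside 48.8% below and 24.0% above of all tested genes. The median of -0.21 (0.02 with TMM scaling) stood against -0.56 in genes of the same length. Removing the trend left 7 above and 1 below. CD151, a tetraspanin partner of laminin-binding integrins, rose from 458, 467 and 423 CPM to 779 and 877 CPM (log2 change 0.88 ± 0.12 (SE), limma adjusted p = 0.000735). ITGB1, the beta 1 integrin, had 1256, 1235 and 1503 CPM untreated and 684 and 809.9 CPM treated and fell to 0.561 of the untreated mean. The plakin DST and the collagen receptor ITGA2 also fell, to 0.411 and 0.437 of the untreated mean, and left the list of calls once the trend was removed. ITGB4, the integrin of the hemidesmosome, had 1184, 1424 and 1902 CPM untreated, 2650.0 CPM after CONV-TOPO and 1869.7 CPM after EE-TOPO. Only CONV-TOPO lay above the untreated values, so ITGB4 was not called.

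TGF-beta response genes were below the range in 7 of 13 members and above it in 2, beside 48.8% below and 24.0% above of all tested genes. The receptor gene TGFBR2 fell from 84.6, 94.3 and 98.4 CPM to 49.8 and 47.2 CPM, while the ligand gene TGFB1 rose from 178, 176 and 177 CPM to 247 and 246 CPM (log2 change 0.48 ± 0.10 (SE), limma adjusted p = 0.00454). PMEPA1, a feedback inhibitor of SMADs, rose from 12.7, 13.2 and 17.0 CPM to 17.5 CPM after CONV-TOPO and 40.5 CPM after EE-TOPO, so that its size rests on the EE-TOPO library. INHBA, an activin subunit, peaked on untreated day 3 (137, 477 and 171 CPM) and had 96.0 and 98.1 CPM treated. The median of the list was -0.33 and that of genes of the same length -0.59, and with the trend removed 7 were above and 2 below, the opposite balance.

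Targets of YAP and TEAD, the transcription factors that answer to stretch and cell contact, were mostly low, and part of the difference remained with the length trend removed. Of 19 tested members 16 were below the range, 1 above and 2 within (14 and 1 past the limma test). The median was -0.86 (-0.85 after CONV-TOPO and -0.72 after EE-TOPO) where genes of the same length had -0.55, and with the trend removed 9 were below and 3 above. After CCN2 the widest gaps were in CRIM1, a transmembrane protein that binds growth factors (123, 82.2 and 127 CPM untreated, 30.4 and 29.9 CPM treated), and TEAD1 itself (118, 101 and 149 CPM untreated, 52.5 and 43.7 CPM treated). Both fell, with values of -1.22 and -0.56 once the trend was removed. IGFBP3, a carrier of insulin-like growth factors, was the 1 member above the range. It had 82.0, 138 and 132 CPM untreated, 222 CPM after CONV-TOPO and 421 CPM after EE-TOPO, and rose 2.73-fold (limma adjusted p = 0.00455). The receptor kinase AXL (80.8, 100.3 and 97.3 CPM untreated, 85.5 and 114 CPM treated) lay above the untreated values only after EE-TOPO and was not called. The core of the TEAD site, GGAATG on either strand, was found in 3 of the 13 promoters of the list in the table (23.1%), against 11.9% of all promoters and 9.21% of those of tested genes. It was also found in 4 of 21 promoters of interferon-stimulated genes (19.05%) and in 0 of 9 of MHC class I genes, so the share was not particular to this list. CCN2, which holds 3 matches, is shown because it had the widest gap of the list.
CCN2, chr6:131951447-131951556, minus strand: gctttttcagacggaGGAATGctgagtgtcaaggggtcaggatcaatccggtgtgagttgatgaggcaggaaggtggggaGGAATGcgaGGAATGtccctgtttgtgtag

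Epithelial and keratin genes were above the range more often than not. Of 22 members 13 were above, 4 below and 5 within (11 and 3 past the limma test), with a median of 0.51 where genes of the same length had -0.00, and 15 above and 2 below with the trend removed. SFN (14-3-3 sigma, a cell cycle brake of epithelia) rose from 403, 463 and 366 CPM to 833 and 815 CPM (log2 change 1.01 ± 0.13 (SE), limma adjusted p = 0.000655). KRT81, a hair keratin, rose from 1264, 1665 and 1112 CPM to 2675 CPM after CONV-TOPO and 4896 CPM after EE-TOPO, and keratins of this cluster are similar in sequence and can share reads. CLDN7, a tight junction claudin, rose from 129, 135 and 126 CPM to 211 and 238 CPM. The adhesion gene CDH1 (E-cadherin) had 236, 223 and 302 CPM untreated and 257 and 268 CPM treated and did not leave the range. Lower were GRHL2, an epithelial transcription factor (44.9, 40.4 and 49.6 CPM untreated, 22.4 and 26.0 CPM treated), and DSP, the desmosomal plakin (174, 202 and 213 CPM untreated, 118 CPM after each regimen), whose value with the trend removed was 0.05.

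S100 proteins and annexins, small calcium-binding proteins, were above the range in 9 of 17 members and below it in 2, with a median of 0.38 against 0.36 in genes of the same length. S100P had the widest gap of the list. Its 29.8, 40.2 and 24.8 CPM untreated stood against 144 CPM after CONV-TOPO and 213 CPM after EE-TOPO, a 5.65-fold difference (log2 change 2.46 ± 0.22 (SE), limma adjusted p = 0.000329) of which 1.97 was left with the trend removed. S100A14 rose from 186, 203 and 169 CPM to 407 and 354 CPM. With the trend removed 6 members were above the range and 4 below. Among 24 actin and tubulin genes 18 were above and 3 below (15 and 0 past the limma test), with a median of 0.46 against 0.22, and 17 above and 2 below with the trend removed. The actin-severing protein CFL1 rose from 1503, 1348 and 1186 CPM to 2287 and 2382 CPM, and the myosin light chain MYL9 from 25.4, 28.4 and 24.1 CPM to 48.5 and 52.97 CPM. TUBB6, a beta tubulin, rose from 36.7, 40.1 and 40.1 CPM to 63.0 and 72.3 CPM, with the reservation that tubulin copies share reads.

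Genes of the integrated stress response, which slows translation and restocks amino acids through ATF4, were above the range in 10 of 20 members and below it in 2 (7 and 2 past the limma test). The median was 0.41 where genes of the same length had 0.08. It was 0.25 without EE-TOPO, 0.27 without untreated day 7 and 0.79 without untreated day 3, where 14 were above. DDIT4, an inhibitor of mTORC1, had 15.5, 26.4 and 23.7 CPM untreated, 86.7 CPM after CONV-TOPO and 98.5 CPM after EE-TOPO, and rose 4.24-fold (log2 change 2.06 ± 0.21 (SE), limma adjusted p = 0.000378). PHGDH, the first enzyme of serine synthesis, rose from 67.7, 89.0 and 56.5 CPM to 135 and 138 CPM, and CHAC1, which degrades glutathione, from 10.2, 29.2 and 14.3 CPM to 42.2 and 59.8 CPM. ATF4 itself had 199.6, 243 and 231 CPM untreated and 224 and 217 CPM treated, within the range. The cystine transporter gene SLC7A11 fell from 82.6, 73.2 and 87.6 CPM to 33.9 and 29.8 CPM, with a transcript of 9645 bases. With the trend removed 8 members were above and 3 below.

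NRF2 antioxidant targets split evenly, with 8 of 18 above the range and 7 below and a median of 0.07 against 0.06 in genes of the same length. HMOX1 (chr22:35381096-35394208), which breaks down heme, had 12.8, 13.8 and 13.2 CPM untreated, 64.2 CPM after CONV-TOPO and 104 CPM after EE-TOPO. It rose 6.33-fold, with untreated values within 1 CPM of each other (log2 change 2.54 ± 0.20 (SE), limma adjusted p = 0.000257). The iron store FTL rose from 666, 619.8 and 594 CPM to 1011 and 1265 CPM. TXNRD1, thioredoxin reductase, fell from 1020.2, 1009 and 949.8 CPM to 530.1 and 551 CPM, and GCLM, of glutathione synthesis, from 39.2, 36.9 and 35.4 CPM to 25.2 and 24.4 CPM. With the trend removed 3 members were above and 6 below. Of 23 heat shock proteins and co-chaperones 9 were below the range and 4 above, beside 48.8% and 24.0% of all tested genes. Their median was -0.17 (0.06 with TMM scaling) against 0.01. The small heat shock protein HSPB1 rose from 209, 166 and 167 CPM to 407 and 455 CPM, and HSP90AA1, the inducible HSP90, fell from 1526, 1411 and 1453 CPM to 856 and 874 CPM. Their values with the trend removed were 0.81 and -0.54, and the counts 3 above and 9 below.

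Immediate early genes, the first to answer growth factors and stress, were above the range in 4 of 16 members and below it in 5. Over all tested genes 24.0% were above and 48.8% below. JUNB and JUND, subunits of AP-1, rose from 132, 231 and 123 CPM to 329 and 393 CPM and from 154, 219.9 and 149 CPM to 346 and 353 CPM. DUSP6, a feedback phosphatase of ERK, fell from 438, 382 and 469 CPM to 256 and 169 CPM, and the zinc finger factors KLF6 and KLF10 fell to 0.348 and 0.457 of the untreated mean. These 5 genes had the same calls with the length trend removed, and the list had 4 above and 4 below. The median was 0.12 where genes of the same length had 0.10, and without untreated day 3 the number above was 9. EGFR and its ligands were below the range in 5 of 7 members and above it in none (0 higher and 4 lower past the limma test). Their median was -0.62 against -0.39 in genes of the same length, and 4 were below and 2 above with the trend removed. EGFR fell from 168, 157 and 213 CPM to 95.7 and 98.0 CPM, with a transcript of 9905 bases and -0.09 left with the trend removed, and its ligand BTC fell from 14.8, 21.1 and 19.1 CPM to 9.60 and 9.98 CPM, with -0.76 left.

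NF-kB feedback targets and chemokines met neither condition of the range rule in 13 of 17 members. CXCL8 (interleukin 8) had 170.3, 1600.3 and 174 CPM untreated, 127 CPM after CONV-TOPO and 239 CPM after EE-TOPO, and NFKBIA, the NF-kB inhibitor, 145, 196 and 148 CPM untreated and 149 and 229 CPM treated. In both genes untreated day 3 stood apart from untreated days 0 and 7, and the median of the list for untreated day 3 minus day 0 was 1.19 on the log2 scale. LCN2, an iron-sequestering protein, was above the range in both regimens and rose from 159, 146 and 128 CPM to 327 and 439.8 CPM (log2 change 1.39 ± 0.15 (SE), limma adjusted p = 0.000435). CXCL1 fell from 166, 380.4 and 193 CPM to 128 and 113 CPM, a call that was lost without either treated library. Without untreated day 3 the number above the range was 8 instead of 2, and without CONV-TOPO it was 6. The median was 0.03 where genes of the same length had 0.02, and 4 were above and 2 below with the trend removed.

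Cholesterol synthesis differed between the regimens. Of 24 members 8 were above the range, 3 below and 13 within, with a median of 0.51 after CONV-TOPO and -0.11 after EE-TOPO. CONV-TOPO lay above EE-TOPO in 23 of 24 members by a median of 0.55 on the log2 scale, where the median over all tested genes was -0.01 and 48.4% of them were higher after CONV-TOPO. With 1 library of each regimen this difference was not tested. It was not particular to this list. Glycolysis and hypoxia-inducible genes had a median of 0.34 after CONV-TOPO and 0.02 after EE-TOPO. Nuclear subunits of oxidative phosphorylation had 0.32 and 0.14, while NF-kB feedback targets and chemokines went the other way, with -0.28 and 0.34. EBP, a sterol isomerase, had 90.1, 111 and 92.1 CPM untreated, 243 CPM after CONV-TOPO and 158 CPM after EE-TOPO, and TM7SF2, a sterol reductase, 82.0, 104 and 86.0 CPM untreated and 187 and 150.3 CPM treated. NSDHL, a sterol dehydrogenase, had 47.3, 47.4 and 44.8 CPM untreated and 81.3 and 73.3 CPM treated. These 3 rose. FDPS, which makes farnesyl diphosphate, had 242, 319 and 276 CPM untreated, 532 CPM after CONV-TOPO and 311 CPM after EE-TOPO. Only CONV-TOPO lay above the untreated values, so FDPS was not called. Genes of the same length had a median of -0.13 where the list had 0.19, and 11 were above the range and 0 below with the trend removed. Without the CONV-TOPO library 8 were above and 10 below, and without the EE-TOPO library 16 and 3. In fatty acid synthesis 5 of 9 members were below the range and 0 above, beside 48.8% and 24.0% of all tested genes. The median was -0.27 against -0.49, and 6 were above and 2 below with the trend removed. The desaturase gene FADS1 fell from 209, 246 and 223 CPM to 152 and 117 CPM.

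Glycolysis and hypoxia-inducible genes were above the range in 11 of 27 members and below it in 3 (7 and 2 past the limma test), with a median of 0.23 against -0.09 in genes of the same length. ALDOA (aldolase A) rose from 1799, 1755 and 1668 CPM to 3620.3 and 3326 CPM, and GAPDH from 3730.1, 3881 and 3717 CPM to 6168 and 5307 CPM. ADM, the hypoxia-inducible peptide adrenomedullin, rose from 27.8, 28.6 and 23.9 CPM to 55.8 and 50.3 CPM. PDK1, which keeps pyruvate out of mitochondria, fell from 106, 84.6 and 124 CPM to 41.1 and 36.2 CPM with a transcript of 14072 bases. PKM, pyruvate kinase, stayed within the range. The counts were 13 above and 2 below after removal of the trend, and 9 instead of 3 were below without the CONV-TOPO library. Lysosome and autophagy genes were similar in count, with 10 of 23 above and 3 below, a median of 0.24 against 0.10, and 10 above and 3 below with the trend removed. The cathepsin gene CTSD rose from 573, 500.0 and 552 CPM to 887 and 987 CPM, and the calcium channel gene MCOLN1 from 64.9, 67.6 and 65.1 CPM to 114 and 119.9 CPM.

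Subunits of large complexes, mostly with short transcripts, were above the range more often than below it in CPM, and below it more often than above once the trend with transcript length was removed. Of 78 cytosolic ribosomal protein genes 30 were above the range, 12 below and 36 within, with a median of 0.15 where genes of the same length had 0.43, and 17 were above and 37 below with the trend removed. RPL6 fell from 828, 775 and 733 CPM to 543 and 466 CPM, while RPLP0 had 2801, 2139.8 and 2198 CPM untreated and 2502 and 2258 CPM treated. Without untreated day 0, 47 were above. Many ribosomal protein genes have processed pseudogenes that can take reads. In nuclear subunits of oxidative phosphorylation 28 of 71 were above and 12 below (median 0.24 against 0.44), and 14 and 28 with the trend removed. ATP5F1D, of the ATP synthase, rose from 102, 88.6 and 82.9 CPM to 204 and 199 CPM, and NDUFS1, of complex I, with a transcript of 11660 bases, fell from 146, 149 and 134 CPM to 79.8 and 74.5 CPM. Mitochondrial ribosomal proteins had 24 of 49 above and 4 below (median 0.16 against 0.35), and 12 and 18 with the trend removed. Proteasome subunits had 9 of 31 above and 8 below (median 0.06 against 0.26), and 5 and 15 with the trend removed. Without untreated day 0 the numbers above were 45 for oxidative phosphorylation and 15 for the proteasome, and without CONV-TOPO the number of mitochondrial ribosomal proteins below was 9. Removal of the trend with gene span in place of transcript length gave another order in 3 of these lists, with 21 above and 13 below for oxidative phosphorylation, 15 and 12 for mitochondrial ribosomal proteins and 12 and 4 for the proteasome, against 13 and 25 for cytosolic ribosomal proteins. With the trends of span, transcript length and GC content removed together, a choice made after seeing the data, the numbers were 13 and 23, 10 and 10, 7 and 7, and 20 and 26 in the same order. The 13 protein genes of the mitochondrial genome are not among the rows and were not analysed here.

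Lists of genes with long transcripts lay below the range almost without exception. All 24 chromatin modifiers were below it (23 past the limma test), with a median of -0.94 against -0.74 in genes of the same length, and with the trend removed 12 were below and 3 above. With span removed instead 19 were below and 1 above. With the trends of span, transcript length and GC content removed together 18 were below and 1 above (median -0.34). The acetyltransferase gene EP300 fell from 79.2, 95.7 and 91.8 CPM to 34.3 and 26.1 CPM, and BPTF, of the NURF remodeler, from 109, 102 and 125 CPM to 46.3 and 45.2 CPM. With the trend removed -0.79 and -0.45 were left. Of 23 giant cytoskeletal and adhesion genes 22 were below (median -1.05 against -0.83), and 9 below and 4 above with the trend removed. With span removed instead 18 were below and 1 above, and with the 3 trends removed together 17 and 0 (median -0.31). HSPG2 (perlecan), of the basement membrane, fell from 1848, 1489 and 2561 CPM to 642 CPM after CONV-TOPO and 359.7 CPM after EE-TOPO. All 3 nuclear-retained long noncoding RNAs were below the range, with a median of -1.74 against -0.80 in genes of the same length. With the trend removed 1 was below and 0 above. With span removed instead 3 were below, and with the 3 trends removed together 2. NEAT1, the scaffold of paraspeckles, climbed in untreated culture from 204 to 316 and 780.0 CPM and had 89.9 and 96.6 CPM treated (log2 change -1.98 ± 0.45 (SE), limma adjusted p = 0.00669), with -0.95 left with the trend removed. MALAT1 had 31.0, 73.7 and 112 CPM untreated and 25.1 and 13.3 CPM treated.

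The shorter lists covered cell death, drug transport and resistance. In the BCL2 family 6 of 11 were above the range and 3 below, with a median of 0.32 against 0.08, and 7 and 2 with the trend removed. The pro-apoptotic BAD rose from 98.3, 91.9 and 80.0 CPM to 178 and 180.5 CPM. Among anti-apoptotic members BCL2L2 fell from 52.3, 53.8 and 58.8 CPM to 32.1 and 36.5 CPM, and MCL1 from 249, 379 and 377 CPM to 216 and 245 CPM, whose value with the trend removed was -0.15 and whose limma call was lost without either treated library. PMAIP1 (NOXA), which neutralises MCL1, fell from 88.9, 132 and 91.1 CPM to 47.8 and 55.8 CPM. All 5 tested ABC transporters of drug efflux were below the range (4 past the limma test), with a median of -0.77 against -0.57, and 3 below and 0 above with the trend removed. ABCC1 (MRP1) fell from 70.0, 64.3 and 79.2 CPM to 40.1 and 33.5 CPM. Of 6 tested taxane-resistance genes that the study names, 3 were above the range and 3 within, and 6 were above with the trend removed or without untreated day 3. The median was 0.45 against -0.13 in genes of the same length. TGM2, a transglutaminase, rose from 142, 153 and 141 CPM to 172 and 254 CPM, KRT7 from 460.4, 453 and 406 CPM to 712 and 1035 CPM, and FSCN1, which bundles actin, had 1319, 1059 and 1193 CPM untreated and 1419.6 and 1341 CPM treated. Of 10 snoRNA host genes 4 were above the range and 1 below, with a median of 0.28 against 0.13, and 4 and 2 with the trend removed, while 7 were above without untreated day 3. The median was 0.06 without EE-TOPO, 0.11 without untreated day 7 and 0.49 without CONV-TOPO.

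**Figure D4:**
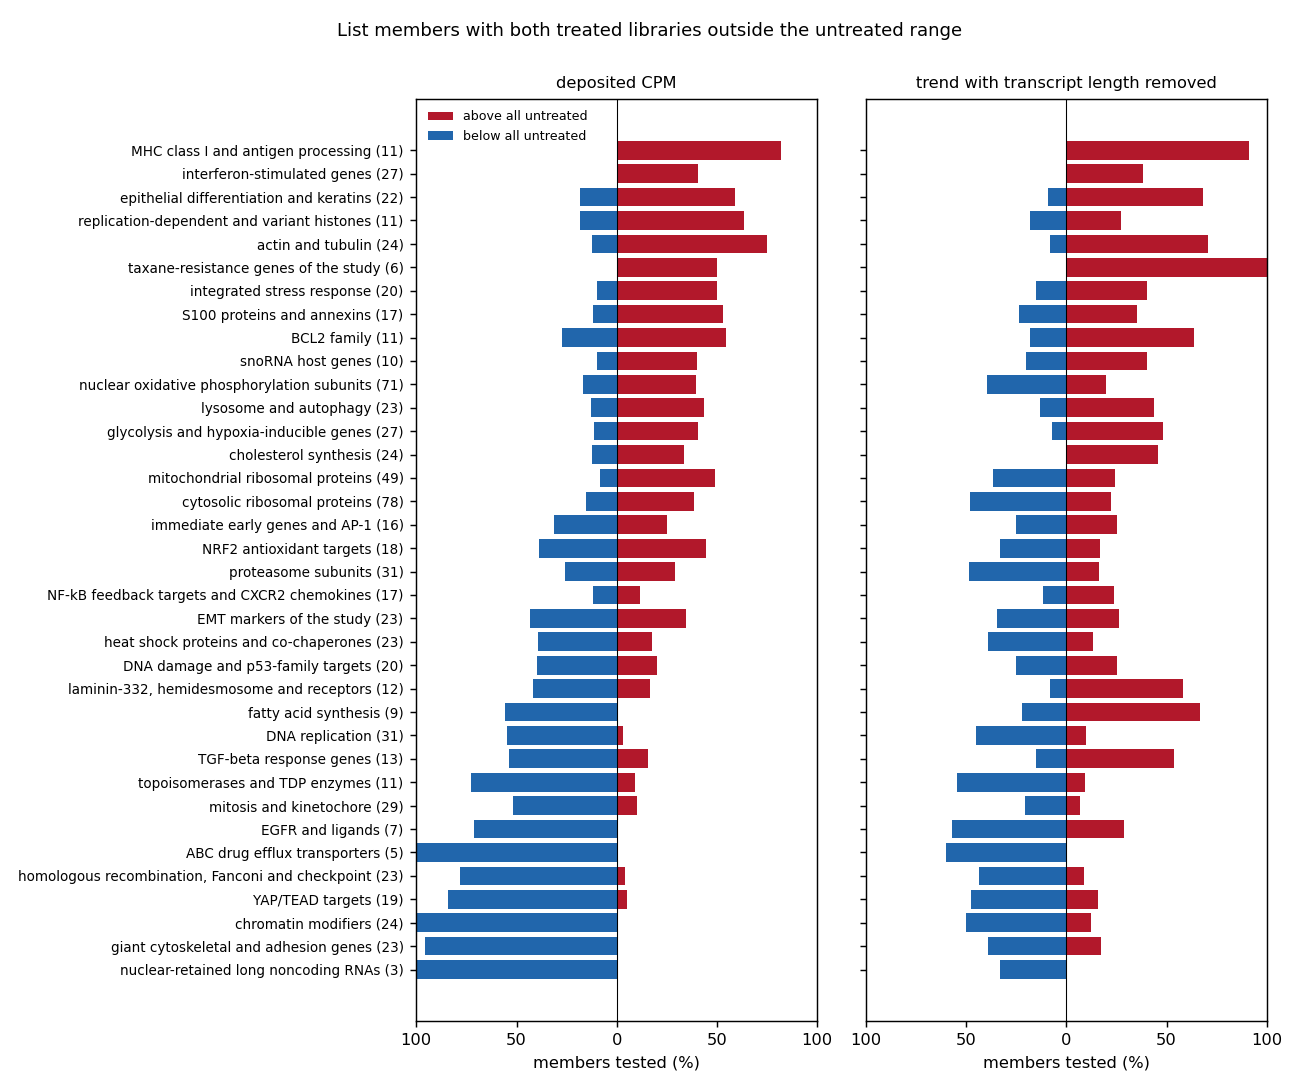
Share of each list's tested members (%, number tested in brackets) with both treated libraries above (to the right of 0) or below (to the left of 0) the untreated range, in deposited CPM in the left panel and with the transcript length trend removed in the right panel. Over all tested genes the shares are 24.0% above and 48.8% below in CPM, and 31.6% and 31.5% with the trend removed. MHC class I genes keep to the right in both panels, and the bars of the chromatin modifiers and of the giant cytoskeletal genes, which fill the left of the first panel, are shorter in the second.

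**Figure D5:**
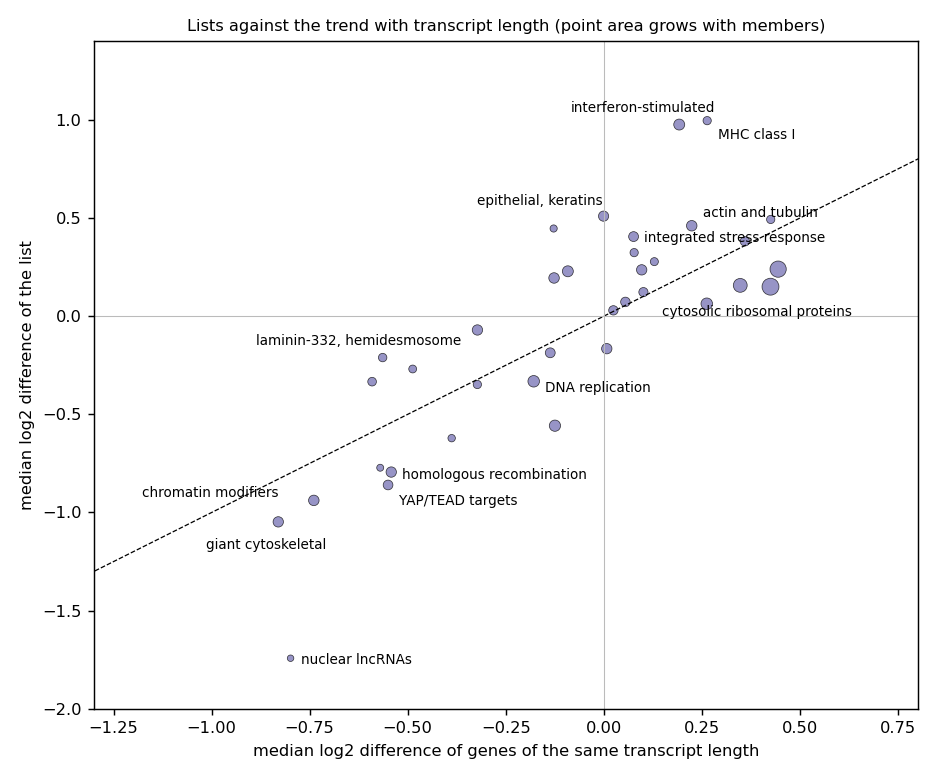
Median log2 difference of each list (log2(CPM + 1), treated minus untreated) against the median that the fitted trend gives at the transcript lengths of its members. Each list is 1 point with an area that grows with its members, and a dashed line marks equality. Interferon-stimulated and MHC class I genes stand above the line (0.98 against 0.19 and 1.00 against 0.26). Chromatin modifiers (-0.94 against -0.74) and YAP/TEAD targets (-0.86 against -0.55) both lie under it.

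The genes with the widest gaps were largely genes that overlap another. The 10 widest gaps above the range were in PCDHGC3, LDLRAD2, TIAF1, COMMD3-BMI1, IFI27, HMOX1, TMEM238, S100P, TFF3 and CHURC1-FNTB. The 10 widest below it were in GALNT4, HNRNPUL2-BSCL2, ABCF2-H2BE1, CRYBG3, IGF2BP3, KIAA0754, KLHL23, HERC2P3, LOC101927751 and ZBED6. Of these 20 genes 16 overlap another listed gene (6 of those above and 10 of those below), where 28.0% of tested genes do, so the division of reads between partners can set their values, and they are named without them. TMEM238, which does not overlap, rose from 58.9, 30.4 and 37.5 CPM to 236 and 225 CPM. Chosen after their values were seen, the widest gaps among genes without an overlap included BST2 (tetherin, another interferon-stimulated gene), which had 9.02, 63.6 and 40.8 CPM untreated, 239 CPM after CONV-TOPO and 202 CPM after EE-TOPO. They also included SCNN1B, a subunit of the epithelial sodium channel, with 22.5, 32.1 and 47.8 CPM untreated and 129.6 and 144 CPM treated, and CLIC3, an intracellular chloride channel protein, with 11.6, 13.5 and 10.8 CPM untreated and 46.2 and 45.4 CPM treated. Among those below were SLC4A7, a bicarbonate transporter (122, 105 and 158 CPM untreated, 26.1 and 24.6 CPM treated), the chromatin remodeler ATRX (149, 139 and 181 CPM untreated, 39.6 and 37.3 CPM treated) and EEA1, of early endosomes (28.8, 28.9 and 33.4 CPM untreated, 6.62 and 6.72 CPM treated). With the length trend removed SLC4A7, ATRX and EEA1 kept log2 values of -1.57, -1.17 and -1.25.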

How the data were processed

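RNA of PC-3 spheroids was measured by RNA-seq in 10 samples. Per the study's methods, TruSeq v2 libraries were sequenced on a NovaSeq as read pairs and mapped to hg38 with STAR, and the labels' processing notes name Partek. The authors deposited 1 table of CPM with an offset of 0.0001, which was subtracted. Of its 7 libraries 5 were used, 2 treated libraries of day 3 were not, and 3 libraries of day 1 were not analysed here. Low values (under 1.5 CPM) were whole reads, within 0.05 of a read, for 89.3% to 90.7% of genes, so depth was estimated and no count test was run. The members and lists were chosen with earlier results of these data known.

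Genes with a mean of at least 10 CPM were tested with limma 3.58.1 (R 4.3.3, mean-variance trend, 3 residual degrees of freedom) on log2(CPM + 1), with Benjamini-Hochberg adjustment at 0.05. With no replicate cultures, its p-values measure only the spread between these libraries. Length trends were removed per library by lowess (fraction 0.3) on GENCODE 44 transcript lengths, known for 98.6% of tested genes. TMM factors were computed on CPM. Python 3.11.15 was used otherwise. The code was run on simulated data of 9862 genes, 200 of them changed 4-fold. With a simulated trend with gene span, 463 to 6186 genes outside those 200 were called. Without a trend 7 to 13 were called, and after its removal 12 to 15. The simulated trend was drawn from span and removed on the same span, with independent noise in each library. It therefore cannot show how many false calls remain in the real data, where transcript length was used. The adjusted p-values printed above come from values with the trend in place. Named genes were LAMB3, AHNAK2, CCN2, the 10 widest gaps each way and, per list, up to 3 of the widest gaps each way and up to 2 within the range of highest CPM. B2M, CD55, HAS3, IFIT1 and ISG15 are outside this rule and were chosen after their values were seen. Some genes that meet the rule are not reported here. Alternatives covered scaling, pseudocount, filter, length, GC content, overlaps, baseline and libraries.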

Additional observations from a re-analysis of the deposited data

Results flagged for a closer look

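Of the 9862 tested genes, 161 had the regimens on opposite sides of all 3 untreated libraries. CONV-TOPO was above and EE-TOPO below in 75, and the reverse held in 86. With 1 library of each regimen the difference between the regimens was not tested. Among the lists, 3 of the 24 cholesterol synthesis genes were of this kind. IDI1, an isomerase of the pathway, had 52.2, 68.1 and 64.0 CPM untreated, 76.5 CPM after CONV-TOPO and 44.5 CPM after EE-TOPO, a log2 difference between the regimens of 0.77 (CONV-TOPO minus EE-TOPO). SQLE, which oxidises squalene, had 216 CPM after CONV-TOPO and 129 CPM after EE-TOPO against 152, 195 and 198 CPM untreated, a difference of 0.73. HSD17B7 had 28.7 CPM after CONV-TOPO and 15.9 CPM after EE-TOPO against 24.0, 24.6 and 24.7 CPM untreated, a difference of 0.82. FASN, the fatty acid synthase, had 699 and 472 CPM against 628, 615 and 660 CPM untreated, a difference of 0.56. The keratin gene KRT80 went the other way, with 26.9 CPM after CONV-TOPO and 51.9 CPM after EE-TOPO against 34.3, 36.6 and 32.5 CPM untreated, a difference of -0.92.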

How the results depend on the processing

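Of 7183 genes outside the range (2370 above, 4813 below), a filter of at least 50 CPM left 3420 (1387 and 2033) and a gap of at least 1.5-fold 1971 (459 and 1512), both smaller by construction. Removing the trend with transcript length left 3062 below, with span 3177, and with span, transcript length and GC content together, chosen after seeing the data, 2610. The limma test called 5388 genes, 3575 with the transcript length trend removed and 2010 with the 3 trends removed. Its 1636 higher and 3752 lower calls became 2592 and 2488 with TMM, 2591 and 2454 with median-of-ratios scaling, 1718 lower (transcript length removed), 2001 lower (span removed) and 1034 and 976 (3 trends removed). Leaving out 1 library gave 3306 to 5241 calls (832 to 1677 higher, 2474 to 3692 lower), the lowest without EE-TOPO, where 832 were higher and 2474 lower, and 980 were higher without CONV-TOPO. The rho with span was -0.52 and -0.49 to -0.54 with 1 library left out, and that with transcript length -0.63. Between 18 and 24 of 36 pathway lists had a median above 0 in these settings (20 as reported).

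Of 2310 log2 changes of 148 named genes under alternatives, 2126 kept their direction and side of the threshold, 149 lost the call, 32 gained one and 3 turned. With transcript length removed DSP had 0.048 and FASN 0.59, and with the 3 trends removed GCLM had 0.16. Leaving out CONV-TOPO cost 9 genes their limma call, EE-TOPO 15, and untreated days 0, 3 and 7 cost 2, 2 and 5. CDT1, CXCL1, HAS3, INHBA, MCL1 and VIM lost it without either treated library. No paired analysis was possible because the numbers in the labels only name libraries and mark no shared culture. Against untreated day 7 alone, the rho with transcript length was -0.68 after CONV-TOPO and -0.63 after EE-TOPO. No count of called genes is given for it, because 1 untreated library holds no spread. Depth (15.0 to 20.0 M reads) was estimated from the low values, and 1 library per condition limits every comparison.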
